A study of Homo sapiens with 6 samples.

Results

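The clustered replication-dependent histone genes were followed in U-87 cells, an established human glioma line, on 6 Affymetrix arrays. Members were all genes whose current symbol is H1-1 to H1-6 or begins with H2AC, H2BC, H3C or H4C and a number, and which had a probe set of their own. This gave 58 genes of the 18417 measured: 6 of H1, 14 of H2A, 17 of H2B, 8 of H3 and 13 of H4. The 3 arrays labelled P68 knockdown were compared with the 3 arrays labelled P68 wild type. P68 is the RNA helicase encoded by DDX5. The labels name transfection with siP68 or with NC, without stating that the wild-type cells received NC. No other treatment, time or dose is given. Separate cultures are not mentioned, so the p-values rest on a spread between arrays that could be technical. All values are log2 signals, and a difference is knockdown minus wild type on that scale.

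Replication-dependent histone genes supply the core histones H2A, H2B, H3 and H4 and the linker histone H1 that package newly made DNA. They lie in clusters, are transcribed mainly in S phase through the coactivator NPAT, and their mRNAs end in a stem-loop bound by SLBP where most mRNAs carry a poly(A) tail. Because the copies of a family encode nearly the same protein, their mRNAs are very alike. Probe sets for 1 copy can therefore read RNA of another, and the values of single copies are uncertain to that extent. The labels describe biotinylated cRNA made from total RNA but not the primer used, so how far RNA without a poly(A) tail was labelled is not given in the sources used here. In bulk RNA, fewer cells in S phase and less histone RNA per cell cannot be told apart.

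Of the 58 genes, 49 lie on chromosome 6, 8 on chromosome 1 and 1, H4C16, on chromosome 12. All but H2BC19P, a pseudogene, are protein-coding in the reference table. A RefSeq promoter window (GRCh38.p14, 250 bases before to 50 after the start) was matched for 52 of them. The octamer ATTTGCAT, the CCAAT box (CCAAT) and the TATA box (TATAAA) were searched on both strands. The octamer was in 23 of the 52 windows (44.2%), against 1.80% of 27303 promoter windows of all genes. It was in 13 of 16 H2B windows and 10 of 13 H2A windows, and in none of the 6 H1, 6 H3 and 11 H4 windows. CCAAT was in 44 of 52 (84.6%, against 35.7% of all) and TATAAA in 34 of 52 (65.4%, against 12.0%). Every matched H1, H2A, H2B and H3 window held CCAAT, whereas 3 of 11 H4 windows did. The windows of facing H2A and H2B genes overlap, so these counts are not independent, and a match of letters is not a measured site.

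Stretches from 4 promoters, chosen after the values were seen, are shown 5′ to 3′ on the strand of the named gene, with the 3 motifs in capitals. A link between the motifs and the differences was not tested. H2AC1 had the lowest p of the members and is given as the 214 bases between its start and that of the facing H2BC1 (chr6:25726563-25726776, minus strand). H1-4 (chr6:26156079-26156328, plus strand) and H2BC9 (chr6:26251364-26251613, plus strand) varied most between arrays of a group. H3C14 (chr1:149841209-149841458, minus strand) shares a probe set with H3C13 and H3C15. For the last 3, the 250 bases before the start are given.
H2AC1: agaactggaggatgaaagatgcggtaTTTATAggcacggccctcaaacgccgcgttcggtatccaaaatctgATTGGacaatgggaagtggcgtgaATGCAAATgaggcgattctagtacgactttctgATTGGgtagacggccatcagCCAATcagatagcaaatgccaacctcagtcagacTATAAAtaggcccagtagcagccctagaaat
H1-4: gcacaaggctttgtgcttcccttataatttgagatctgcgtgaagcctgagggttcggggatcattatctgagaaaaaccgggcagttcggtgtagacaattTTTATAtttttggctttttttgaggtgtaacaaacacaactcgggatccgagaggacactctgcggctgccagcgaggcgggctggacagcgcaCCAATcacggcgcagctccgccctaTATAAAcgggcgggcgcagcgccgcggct
H2BC9: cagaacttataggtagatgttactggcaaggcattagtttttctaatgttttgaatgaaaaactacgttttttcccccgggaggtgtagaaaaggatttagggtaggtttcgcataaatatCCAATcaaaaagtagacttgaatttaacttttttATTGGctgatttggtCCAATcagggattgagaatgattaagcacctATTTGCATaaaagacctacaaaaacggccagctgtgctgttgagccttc
H3C14: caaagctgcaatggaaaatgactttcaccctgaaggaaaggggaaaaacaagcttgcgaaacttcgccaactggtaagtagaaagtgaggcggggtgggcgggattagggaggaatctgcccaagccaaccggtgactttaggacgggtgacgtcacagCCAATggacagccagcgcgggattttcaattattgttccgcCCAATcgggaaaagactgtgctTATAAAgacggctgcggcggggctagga
The H2AC1 stretch holds 1 octamer, 3 CCAAT and 2 TATAAA matches, 1 TATAAA toward each end. The H2BC9 stretch holds 1 octamer and 3 CCAAT but no TATAAA, and the H1-4 and H3C14 stretches hold CCAAT and TATAAA but no octamer. The windows of H3C14 and H3C15 share an unbroken run of 296 of 300 bases.

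The check of the targeted gene came out in the direction of the labels: DDX5 was 9.47, 9.79 and 9.91 in the knockdown, against 10.09, 10.25 and 10.30 in the wild type. Its difference was -0.49 ± 0.13 (SE), with an adjusted p of 0.902 in limma over all genes and p = 0.1 in an exact permutation test (two-sided), the smallest that 3 against 3 allow. Array medians over all probe sets lay between 4.32 and 4.37. Of 8 glioma and glial markers, 4 lay at or above the median gene: vimentin (VIM, 7.25 to 7.94), NES, GFAP and FN1. CHI3L1, SOX2, CD44 and S100B lay below it, with mean signals of 4.39, 3.75, 3.59 and 3.17 over the 6 arrays. Of 7 markers of other cells, 2 lay at or above the median gene: CD68 and the neuronal splicing factor RBFOX3, which was 5.72 to 5.96 in the knockdown, against 5.53 to 5.76 in the wild type. MBP, PECAM1 and EPCAM lay between 2.96 and 4.43 on all 6 arrays, and CD45 (PTPRC) and AIF1 between 2.49 and 2.93. CD68, a lysosomal protein of macrophages and other cells, was the 1 of the 7 whose groups did not overlap (10.1% of all genes). It was 4.70 to 5.29 in the knockdown, against 4.46 to 4.67 in the wild type, and its part in the histone values was not tested.

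The histone signals were low for this array. Of the 58 genes, 45 were among the dimmest 40% of all genes by mean signal (under 4.28), and 8 were at or above the median gene (4.67). Signals of different probe sets do not rank RNA amounts, and without detection calls the dim members may lie at background.

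The arrays numbered 1 stood apart for the histone genes in both groups. Relative to each gene's own mean over the 6 arrays, the median member lay at 0.19, -0.046 and -0.058 on knockdown arrays 1, 2 and 3, against 0.066, -0.14 and -0.078 on wild-type arrays 1, 2 and 3. Over all genes the same medians lay between -0.01 and 0.017. Array 1 was thus the brightest of its group for the median histone gene in knockdown and in wild type alike. The arrays as a whole were level, but RMA gives all arrays nearly the same distribution. The level therefore cannot show whether a shift common to most genes was present. For single genes, array 1 was the brightest of both groups for 25 of the 58 members, where 14.6% of all genes were. Knockdown array 1 gave the highest of all 6 values for 27 members, and wild-type array 2 the lowest for 21 (ties counted). The same counts over all genes were not taken. Knockdown array 1 lay above the gene's own mean for 46 of the 58 members, where 48.7% of all genes did. Wild-type array 2 did so for 13 members, where 46.7% of all genes did. By family, array 1 was brightest in both groups for 9 of 14 H2A, 8 of 17 H2B, 5 of 13 H4, 2 of 6 H1 and 1 of 8 H3 genes. Values without both arrays numbered 1, a choice made after the data were seen, are given for the families and the main genes.

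**Figure D1:**
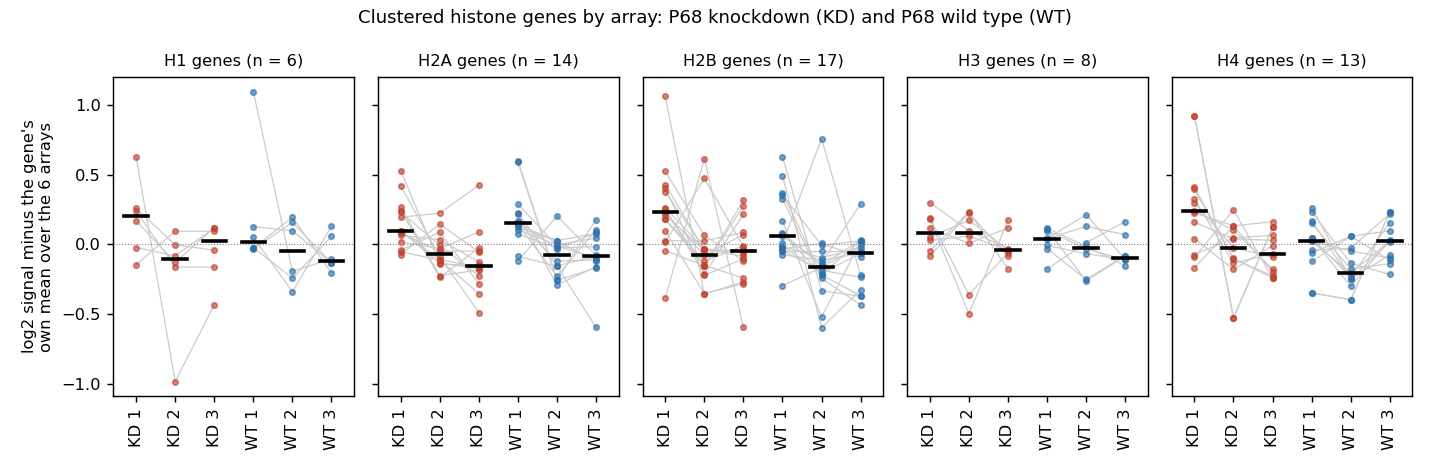
Log2 signal of each clustered histone gene minus its own mean over the 6 arrays, by family; red points are the 3 P68 knockdown arrays, blue points the 3 P68 wild-type arrays, grey lines join the values of a gene within a group and black bars are medians. In the knockdown, the median of each family is highest on array 1 (0.20 for H1, 0.097 for H2A, 0.23 for H2B, 0.084 for H3 and 0.24 for H4). In the wild type it is highest on array 1 for H1 (0.013), H2A (0.15), H2B (0.058) and H3 (0.04), and level on arrays 1 and 3 for H4 (0.023).

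The comparison of P68 knockdown with P68 wild type asked whether histone mRNA signals changed when DDX5 was lowered. None of the 58 genes differed at an adjusted p under 0.05 in limma, as for all genes (0% of 18417). At an unadjusted p under 0.05, 1 member (H2AC1) differed, where 5.09% of all genes did. The groups did not overlap for 2 members, H2AC1 and H2BC7, where 10.1% of all genes did not overlap. H2BC7, an H2B copy, was 2.45, 2.45 and 2.51 in the knockdown, against 2.38 on each wild-type array. This gap was 0.09 ± 0.093 (SE), among the lowest signals of the members, and H2BC7 was named after its values were seen.

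Differences lay above 0 for 39 members and below 0 for 19, where 52.5% of all genes lay above 0. Without both arrays numbered 1, 31 of the 58 lay above 0, and without knockdown array 1 alone 28 did. The median difference was 0.047, against 0.01 over all genes. It became -0.0092 without knockdown array 1 and 0.11 without wild-type array 1, so its sign turned with 1 array. Differences ran from -0.53 (H1-4) to 0.56 (H2AC1), and 49 of the 58 were under 0.25 in size. The 95% confidence interval lay within a 2-fold change either way for 54 members, the exceptions being H1-4, H2BC9, H4C14 and H4C15.

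**Figure D2:**
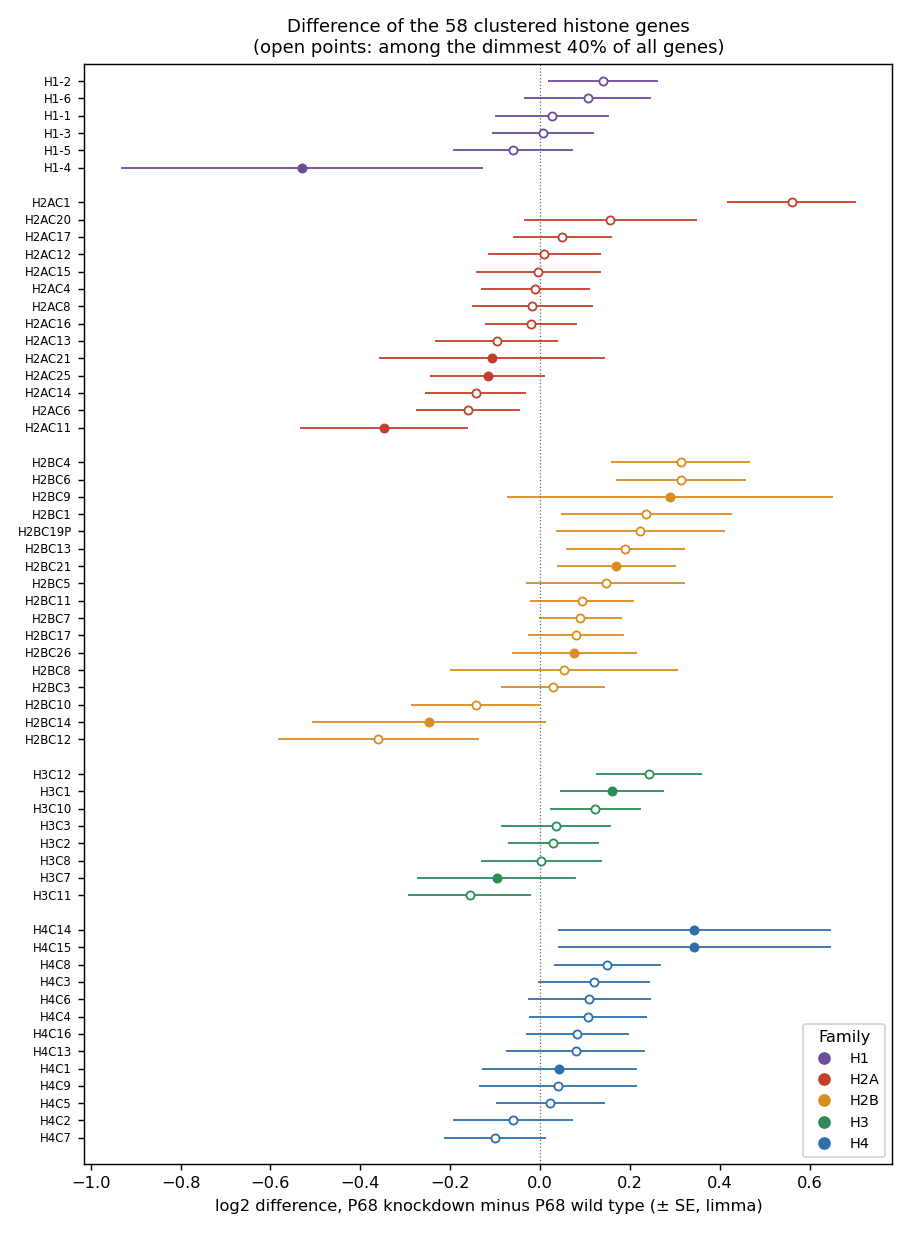
Log2 difference, P68 knockdown minus P68 wild type, of the 58 clustered histone genes with its limma standard error, grouped by family and sorted within each; open points are genes among the dimmest 40% of all genes. Differences run from -0.53 for H1-4 to 0.56 for H2AC1, and 49 of 58 are under 0.25 in size.

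The H1 genes encode linker histones, which bind DNA where it enters and leaves the nucleosome. Of the 6, 4 lay above 0 and 2 below, with a median of 0.017, and 3 lay above 0 under each of 3 other scalings (median centring, repeated quantile normalisation and cyclic loess). The median turned to -0.064 without wild-type array 3 (2 above, 4 below) and to -0.0033 without knockdown array 3, and was 0.038 without both arrays numbered 1. H1-4 was 7.28, 5.67 and 6.22 on knockdown arrays 1, 2 and 3, against 7.75, 6.46 and 6.55 on wild-type arrays 1, 2 and 3. The groups overlapped widely, and array 1 was over 1 log2 unit above the other two in each group (1.34 above their mean in the knockdown, against 1.25 in the wild type). Knockdown arrays averaged 6.39 ± 0.82 and wild-type arrays 6.92 ± 0.72 (SD, n = 3 each). The difference was -0.53 ± 0.40 (SE; limma, adjusted p = 0.912). The knockdown signal was 69.3% of that of the wild type, and the 95% confidence interval of the difference, -1.42 to 0.36, includes 0. The value was -0.98 without knockdown array 1, -0.17 without knockdown array 2, -0.115 without wild-type array 1 and -0.56 ± 0.18 (SE, adjusted p = 0.651, limma) without both arrays numbered 1. H1-4 thus kept its sign in these settings, while its size moved with single arrays.

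The other five H1 genes were dim and lay close to 0. H1-3 was 3.76, 3.70 and 3.90 in the knockdown, against 3.75, 3.94 and 3.65 in the wild type, a difference of 0.0067 ± 0.11 (SE). H1-1 (0.027), H1-2 (0.14), H1-5 (-0.06) and H1-6 (0.11), the last known as the testis linker histone, had standard errors of 0.12 to 0.14. None of the 6 showed separate groups.

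The H2A genes lay mostly below 0, with 10 of 14 below, 4 above and a median of -0.018. With single arrays left out, this median ran from -0.13 without knockdown array 1 (3 above, 11 below) and -0.094 without wild-type array 2 to 0.015 without knockdown array 3 and 0.026 without wild-type array 1. It was -0.078 without both arrays numbered 1. H2AC1, which encodes a testis form of H2A, ran against this. It was 4.14, 4.17 and 4.37 in the knockdown, against 3.86, 3.79 and 3.35 in the wild type. All 3 knockdown arrays were above all 3 wild-type arrays, and array 1 did not stand out. Knockdown arrays averaged 4.23 ± 0.13 and wild-type arrays 3.67 ± 0.28 (SD, n = 3 each). They differed by 0.56 ± 0.14 (SE), which puts the knockdown at 147% of wild type. The 95% confidence interval was 0.24 to 0.88, with an unadjusted p of 0.0027 and an adjusted p of 0.902 in limma. The difference was 0.70 without both arrays numbered 1 and 0.40 without wild-type array 3, the dimmest. H2AC1 was among the dimmest 40% of genes.

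H2AC21 was 5.55, 5.04 and 4.64 in the knockdown, against 5.72, 4.87 and 4.96 in the wild type, a difference of -0.11 ± 0.25 (SE). Array 1 was again the brightest of both groups, and without wild-type array 1 the value turned to 0.16. Without knockdown array 3 it turned to 0.11, without knockdown array 1 it was -0.34, and without both arrays numbered 1 it was -0.075. H2AC25, of the small chromosome 1 cluster, was 4.89, 4.68 and 4.63 in the knockdown, against 5.08, 4.78 and 4.69 in the wild type (-0.12 ± 0.13, SE). Its value ran from -0.20 without wild-type array 3 to -0.0017 without wild-type array 1, and was -0.08 without both arrays numbered 1. The largest value below 0 among the H2A genes, chosen after it was seen, was that of H2AC11 (-0.35 ± 0.19, SE), with 4.32, 4.26 and 4.02 in the knockdown, against 4.97, 4.12 and 4.55 in the wild type. Its groups overlapped, and without both arrays numbered 1 it was -0.195.

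The H2B genes lay mostly above 0, with 14 of 17 above, 3 below and a median of 0.093. The median stayed above 0 under all 3 other scalings and with each array left out, from 0.048 without knockdown array 1 (9 above, 8 below) to 0.175 without wild-type array 1, and was 0.10 without both arrays numbered 1. H2BC9, the brightest H2B probe set, was 7.37, 5.95 and 6.04 in the knockdown, against 6.80, 5.71 and 5.98 in the wild type. As for H1-4, array 1 was far above the other two in each group, by 1.375 over their mean in the knockdown, against 0.955 in the wild type. Knockdown arrays averaged 6.45 ± 0.795 and wild-type arrays 6.16 ± 0.57 (SD, n = 3 each). The difference was 0.29 ± 0.36 (SE; limma, adjusted p = 0.930). It turned to -0.17 without knockdown array 1, was 0.61 without wild-type array 1, and 0.15 ± 0.13 (SE) without both.

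H2BC21, of the chromosome 1 cluster, was 5.35, 4.88 and 5.31 in the knockdown, against 5.02, 4.98 and 5.03 in the wild type (0.17 ± 0.13, SE). Knockdown array 2 lay below all wild-type arrays, so the groups overlapped. The value was 0.32 without that array, 0.085 without knockdown array 1 and 0.09 without both arrays numbered 1. The H2B genes with the largest values regardless of signal, chosen after they were seen, were H2BC6 and H2BC4 (0.31 each) and H2BC12 (-0.36), all among the dimmest 40% of genes and none with separate groups. The low value of H2BC12 came with wild-type array 2 at 3.20, where the other two wild-type arrays were at 2.45 and 2.22.

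H2A and H2B genes often face each other across a shared promoter. Among the members, 9 such pairs were measured on both sides with starts less than 500 bases apart. The testis pair H2AC1 and H2BC1 lay above 0 on both sides (0.56 and 0.24), with H2BC1 at 3.35, 2.96 and 3.39 in the knockdown, against 3.44, 2.87 and 2.68 in the wild type. The groups of H2BC1 overlapped, and its standard error was 0.19. Of the 9 pairs, 4 had the same sign on both sides: 3 above 0 and 1, H2AC14 with H2BC14, below. In the other 5 the H2B partner lay above 0 and the H2A partner below, for example H2BC11 (0.093) with H2AC11 (-0.35) and H2BC4 (0.31) with H2AC6 (-0.16). In no pair did the H2A side lie above 0 and the H2B side below. The sign was therefore not shared across most of these promoters, at differences that for single genes were mostly within 2 standard errors.

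**Figure D3:**
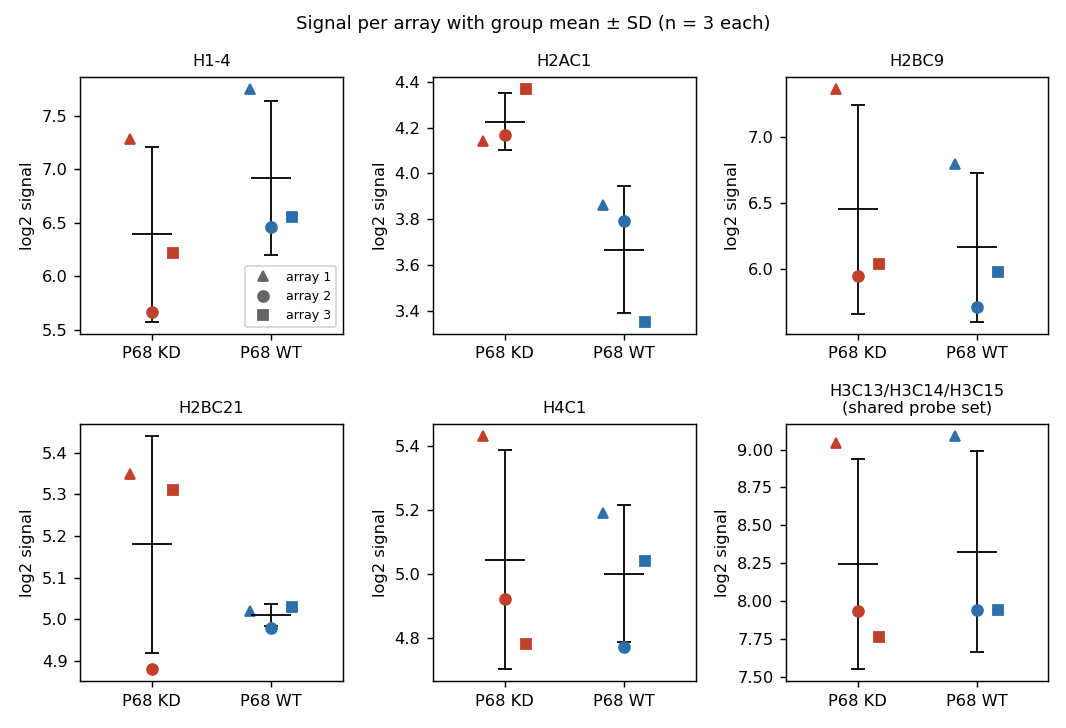
Log2 signal on each array for 5 clustered histone genes and for the probe set shared by H3C13, H3C14 and H3C15; red is P68 knockdown, blue P68 wild type, the symbol gives the array number, and the bar and whiskers are the group mean ± SD (n = 3 each). Array 1 is the highest of both groups for H1-4, H2BC9, H4C1 and the shared H3 probe set, while H2AC1 separates the groups, at 4.14 to 4.37 in the knockdown, against 3.35 to 3.86 in the wild type.

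Of the 8 H3 genes, 6 lay above 0 and 2 below, with a median of 0.033. The median was 0.095 without wild-type array 1, 0.091 without knockdown array 3 and 0.12 without both arrays numbered 1, and 4 of the 8 lay above 0 without wild-type array 3. H3C7 was 5.26, 4.58 and 5.25 in the knockdown, against 5.12, 5.29 and 4.97 in the wild type (-0.097 ± 0.18, SE). Its value rested on knockdown array 2, without which it was 0.13, and was -0.215 without both arrays numbered 1. H3C1 was 4.79, 4.68 and 4.79 in the knockdown, against 4.78, 4.41 and 4.59 in the wild type (0.16 ± 0.12, SE, adjusted p = 0.908, limma). Its value ran from 0.068 without wild-type array 2 to 0.25 without wild-type array 1, and was 0.235 without both arrays numbered 1. The largest H3 value, chosen after it was seen, was H3C12 at 0.24 ± 0.12 (SE), with overlapping groups. The single-copy H3 probe sets showed the array 1 pattern least, in 1 of 8 genes.

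Of the 13 H4 genes, which encode the same core histone, 11 lay above 0 and 2 below, with a median of 0.083. Without knockdown array 1 the median was -0.028, and without both arrays numbered 1 it was -0.005, with 6 above 0 and 7 below. H4C1 was 5.43, 4.92 and 4.78 in the knockdown, against 5.19, 4.77 and 5.04 in the wild type (0.043 ± 0.17, SE), and it turned to -0.055 without both arrays numbered 1. H4C14 and H4C15 had probe sets with identical values on all 6 arrays, so they count as 1 measurement. These were 5.42, 3.97 and 4.62 in the knockdown, against 4.15, 4.10 and 4.73 in the wild type, a difference of 0.34 ± 0.30 (SE, adjusted p = 0.912, limma). Here knockdown array 1 was the highest by far while wild-type array 1 was not, and without both the value turned to -0.12. With the identical pair counted once, 38 of 57 measurements lay above 0 and the median of all members was 0.043.

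A further 13 protein-coding histone genes of the same families were read only by probe sets assigned to several symbols, and 16 such probe sets carried clustered histone symbols alone. The probe set shared by H3C13, H3C14 and H3C15 with the highest signal was 9.04, 7.93 and 7.76 in the knockdown, against 9.09, 7.94 and 7.94 in the wild type. Array 1 was over 1 log2 unit above the other two in both groups, while the group means differed by -0.08 (8.24 in the knockdown, against 8.32 in the wild type). The probe set shared by H2BC19P, H2BC20P and H2BC21 was 8.98, 7.78 and 7.88 in the knockdown, against 8.85, 7.78 and 7.91 in the wild type, a difference of 0.033. The H4C11 and H4C12 probe set with the higher signal was 6.23, 5.35 and 5.37 in the knockdown, against 6.25, 5.36 and 5.63 in the wild type. In these 3 shared probe sets the spread between arrays of 1 group was many times the difference between the groups. Other shared sets differed more. The set of H2BC15 and H2AC15 lay at 0.36, and that of H2BC12, H2BC12L, H2BC17 and H2BC5 at 0.26. The shared sets of H4C14 and H4C15 lay at 0.24. The lowest of the 16 was -0.097, for the H4C11 and H4C12 set above. Array 1 was the brightest of both groups in 12 of the 16. Differences lay above 0 in 8 and below 0 in 8, with a median of 0.012. The sets overlap in genes, and 3 repeat the values of another, which leaves 13 distinct measurements. Adding all 16 to the 58 genes gave a median difference of 0.038, with 47 of 74 above 0. Shared sets outside the 16, which carry H2BC18 with H2BP1 or FCGR1BP, all lay above 0, at 0.16, 0.073, 0.28 and 0.04.

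Histone mRNAs depend on a machinery of their own, and 34 of 36 listed genes for their transcription, 3′ processing and decay were measured. None passed an adjusted p under 0.05 in limma (0% of all genes), and 2 had an unadjusted p under 0.05 (5.09% of all genes). Of the 34, 14 lay above 0 and 20 below, with a median of -0.025. NPAT, the S-phase coactivator of histone genes, was 3.27, 3.25 and 3.42 in the knockdown, against 3.40, 3.65 and 3.20 in the wild type (-0.10 ± 0.13, SE). SLBP, which binds the stem-loop, was 5.48, 5.69 and 5.41 in the knockdown, against 5.46, 5.47 and 5.40 in the wild type (0.083 ± 0.11, SE, and 0.0017 without knockdown array 2). For both genes the groups overlapped. CASP8AP2 (FLASH), ZNF473 and the U7 particle proteins LSM10 and LSM11, which act in 3′ cleavage of histone pre-mRNA, lay between -0.0033 and 0.023, each with a standard error of 0.097 to 0.11.

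The 2 genes with an unadjusted p under 0.05 were TUT7 and CSTF2. TUT7, which adds uridines to RNA ends including those of histone mRNAs in decay, was the lowest of the list. It was 4.27, 3.70 and 3.99 in the knockdown, against 4.41, 4.34 and 4.36 in the wild type, or -0.38 ± 0.14 (SE; limma, adjusted p = 0.902). Its value was -0.24 without knockdown array 2 and -0.505 without both arrays numbered 1. CSTF2, a cleavage factor subunit chosen after its values were seen, was 5.95, 5.74 and 5.89 in the knockdown, against 6.25, 6.08 and 6.09 in the wild type (-0.28 ± 0.11, SE, adjusted p = 0.902, limma). For both, all knockdown arrays were below all wild-type arrays, as for 5 of the 34 genes, where 4.15% of all genes did not overlap and were lower. The other three were NCBP1 (-0.33), CPSF3 (-0.17) and NCBP3 (-0.07), the last a cap-binding protein with a difference under its standard error. The highest value of the list was that of EXOSC10, a nuclease of the nuclear exosome, at 0.11 ± 0.115 (SE), and 0.018 without wild-type array 1. Cyclin E2 (CCNE2), which activates CDK2 at the start of S phase and was named after its values were seen, shared the array 1 pattern of the histone genes. It was 6.60, 5.66 and 5.72 in the knockdown, against 6.25, 5.93 and 5.74 in the wild type.

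The histone variants listed as replication-independent lay on both sides of 0. Of 13 measured of 17 listed, 6 were above and 7 below, with a median of -0.047. None passed the adjusted threshold in limma (0% of all genes). Array 1 was the brightest of both groups for none of the 13 variants, 7 of the 34 genes above and 25 of the 58 clustered genes. It was so for 6 of the 23 chaperone genes below, 3 of the 7 markers of other cells and 1 of the 8 glioma and glial markers. Over all genes the share was 14.6%, and these counts were not tested against each other. H1-7, a linker histone of spermatids, had the highest value, at 6.12, 6.45 and 5.98 in the knockdown, against 5.98, 5.81 and 5.94 in the wild type (0.27 ± 0.13, SE, and 0.14 without knockdown array 2). H3-5, a testis H3 variant, had the lowest, at 6.02, 6.18 and 6.46 in the knockdown, against 6.03, 6.69 and 6.79 in the wild type (-0.28 ± 0.19, SE). The H3-5 value ran from -0.52 without wild-type array 1 to -0.14 without wild-type array 3, and was -0.42 without both arrays numbered 1. H2AX, the variant phosphorylated at DNA breaks and named after its values were seen, was 7.21, 7.34 and 7.14 in the knockdown, against 7.11, 6.78 and 7.01 in the wild type (0.26 ± 0.12, SE, unadjusted p = 0.046, adjusted p = 0.902, limma). H2AX was the 1 of the 13 variants with an unadjusted p under 0.05, where 5.09% of all genes had one.

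Of 23 genes for histone chaperones and acetylation before assembly, 18 lay below 0 and 5 above, with a median of -0.07. None passed the adjusted threshold (0% of all genes) or the unadjusted threshold (5.09% of all genes) in limma. NAP1L4, a chaperone of H2A and H2B, had the highest value, at 5.80, 5.95 and 5.80 in the knockdown, against 5.78, 5.38 and 5.71 in the wild type (0.23 ± 0.12, SE, and 0.105 without wild-type array 2). ASF1A, which hands H3 and H4 to assembly factors, had the lowest, at 5.63, 5.54 and 5.79 in the knockdown, against 5.59, 6.07 and 5.91 in the wild type (-0.20 ± 0.135, SE). The ASF1A value was -0.097 without wild-type array 2, -0.34 without wild-type array 1 and -0.325 without both arrays numbered 1. The median of the 23 genes stayed below 0 under all 3 other scalings and with each array left out (-0.087 to -0.05), and was -0.075 without both arrays numbered 1.

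**Figure D4:**
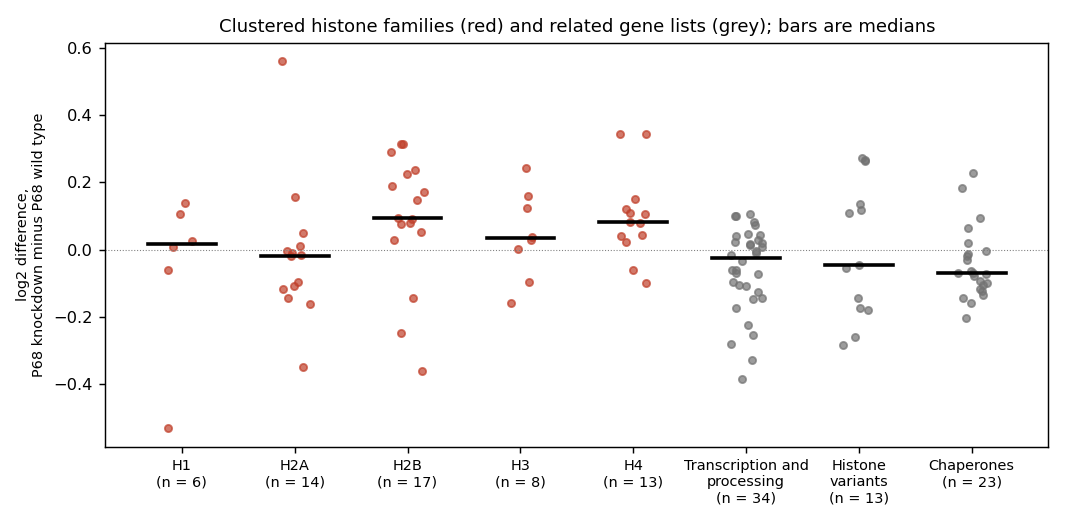
Log2 differences, P68 knockdown minus P68 wild type, of the genes of each clustered histone family (red) and of 3 related lists (grey), with black bars at the medians. The medians run from -0.07 for the 23 chaperone genes to 0.093 for the 17 H2B genes, and no gene shown passed an adjusted p under 0.05.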

How the data were processed

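The deposited values are log2 signals made with RMA, per the submitters' processing notes, while software, version, filters and genome build were not given in the sources used here. RMA gives all arrays nearly the same distribution, which hides shifts common to most genes. The table held 29096 probe sets, of which 19460 had 1 gene symbol in the platform annotation, 1754 several and 7882 none; symbols were checked by gene identifier against GRCh38.p14 (19429 matched). For each of 18417 genes the probe set of highest mean was kept. Groups were compared with limma 3.58.1 in R 4.3.3 (lmFit, eBayes, two-sided, group as the only term, no filter), adjusted by Benjamini-Hochberg over all genes at 0.05, and the fit was tested on simulated data. The number of arrays limits the precision. The members, the lists and the tests were chosen with earlier results of these data known. Named are DDX5, in each family the 2 brightest genes and those of largest rise and fall at or above the median gene, members with an unadjusted p under 0.05 and separate groups, 6 processing factors, and the highest and lowest of each list; other genes were named after their values were seen. Alternatives covered scaling, dim genes, probe sets, variance model, a replicate block and each array left out.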

Additional observations from a re-analysis of the deposited data

How the results depend on the processing

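No gene passed the adjusted threshold in limma under any of the 16 alternatives, and 543 to 1374 genes had an unadjusted p under 0.05 (937 in the fit as reported). The median difference of the histone genes lay between -0.0092 and 0.11 with single arrays left out, and 28 to 41 members lay above 0. With the dimmest 40% of genes left out, 13 members stayed and 7 of these lay above 0 (53.8%). Of the 45 members left out, 32 lay above 0 (71.1%), where 54.0% of all genes in the dimmest 40% did. Dim members thus made up 32 of the 39 above 0 and 13 of the 19 below 0, where 45 of all 58 were dim. Dim members may lie at background. Over 25 named genes, 360 of 392 values kept their direction. Values turned sign with arrays centred on their median (H1-3 to -0.01, CASP8AP2 to -0.0033), after repeated quantile normalisation (H1-3 to -0.0022), after cyclic loess (H1-3 to -0.0088), with array weights (H4C1 to -0.0199, LSM10 to -0.0039) and without both arrays numbered 1 (H4C1 to -0.055, H4C14 and H4C15 to -0.12, CASP8AP2 to -0.03, ZNF473 to -0.04, LSM10 to -0.015); the cause was not tested. With single arrays left out, values ran from -0.17 to 0.61 for H2BC9, -0.34 to 0.16 for H2AC21, -0.21 to 0.13 for H3C7, -0.15 to 0.175 for H4C1, -0.032 to 0.69 for H4C14 and H4C15, -0.058 to 0.087 for H1-3, -0.21 to 0.013 for NPAT, -0.035 to 0.05 for CASP8AP2, -0.022 to 0.043 for ZNF473, -0.017 to 0.063 for LSM10 and -0.092 to 0.073 for LSM11.

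Same-numbered arrays did not all deviate together over all genes (r = 0.27, -0.027 and 0.13 for numbers 1, 2 and 3). Over the 58 members r was 0.35, 0.24 and 0.020. Between arrays of different number, r ran from -0.25 to 0.17 over all genes and from -0.41 to 0.28 over the members. The highest of both, 0.17 and 0.28, were those of knockdown array 3 with wild-type array 2. The labels do not say whether a number marks a pair, so the numbers were not taken as pairs in the fit as reported. With the replicate block, 0 genes passed the threshold and 1149 had an unadjusted p under 0.05. The median of the members was 0.047 with 39 above 0. H1-4 then had a standard error of 0.12 (unadjusted p = 0.0012, adjusted p = 0.791, limma). That of H2BC9 was also 0.12 (unadjusted p = 0.039, adjusted p = 0.791, limma). Low signal limits 45 of the 58 members.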

Other observations

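Genes outside the histone families shared the brightness of both arrays numbered 1. For every probe set, the gap between array 1 and the brighter of the other two was taken in each group, and the smaller of both gaps was ranked; this measure was chosen after the data were seen and carries no test. It was at least 0.5 for 73 of 29096 probe sets (0.251%) and for 11 of the 78 probe sets with a clustered histone symbol (14.1%). Among the 50 probe sets with the largest gaps, 9 carried clustered histone symbols and 12 had no symbol. Several of these histone sets read the same genes (H3C13, H3C14 and H3C15, or H4C11 and H4C12), some with identical values. The counts of 9 and 11 are therefore not counts of separate genes. HSPA8, the constitutive HSC70 chaperone, led, at 9.61, 7.86 and 8.11 in the knockdown, against 9.69, 8.30 and 8.13 in the wild type. Its partners HSPH1 (7.37, 6.39 and 6.47 in the knockdown, against 7.41, 6.52 and 6.52 in the wild type) and DNAJA1 (6.60, 5.12 and 5.26 in the knockdown, against 6.34, 5.40 and 5.49 in the wild type) did the same. So did the tubulin TUBB (8.79, 7.47 and 7.70 in the knockdown, against 8.75, 7.95 and 7.85 in the wild type) and the mitotic kinase PLK1 (7.32, 6.30 and 6.37 in the knockdown, against 7.18, 6.47 and 6.52 in the wild type). The knockdown minus wild-type differences of these 5 genes lay between -0.20 and -0.06, with standard errors of 0.27 to 0.47. For LDHA and CCT3, also among the 50, they were -0.11 ± 0.22 and 0.013 ± 0.20 (SE). These genes were picked by hand after the ranking was seen. NEFL (gap 1.01) and PTPN20 (0.96) ranked above HSPH1 (0.89).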
